A study of Mus musculus with 8 samples.

Results

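The genes described here encode enzymes of branched-chain amino acid breakdown, 10 genes fixed by name (Bcat1, Bcat2, Bckdha, Bckdhb, Dbt, Bckdk, Ivd, Mccc1, Hibch and Aldh6a1). All 10 were measured, each by 1 probe set, among 18820 genes in all. They were read in white adipose tissue of the epididymal depot, a visceral fat depot, taken from male C57BL/6 mice. The values came from 8 single-colour expression arrays, 4 of wild-type mice (WT) and 4 of mice that carry a transgene for human interleukin-37 (IL37TG), an anti-inflammatory cytokine of the IL-1 family. Both groups ate a low-fat diet (10% of its energy from fat) for 2 weeks and then a high-fat diet (45%) for 16 weeks. The wild-type mice were bought from the Jackson Laboratories, whereas the transgenic mice came from an existing line on a C57BL/6 background. The labels do not say that the groups were littermates, and the promoter behind the transgene and the age of the mice are not given in the sources used here. Nothing states that the replicates were separate mice, and the p-values then reflect no more than the spread of these samples, which may be technical.

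Leucine, isoleucine and valine are broken down mainly in mitochondria. A transaminase first removes the amino group, and the branched-chain ketoacid dehydrogenase complex then removes a carbon dioxide in the committed step, which a kinase switches off by phosphorylation. The 3 branches then part and end in acetyl-CoA, acetoacetate or propionyl-CoA, and in mature fat cells these carbons feed lipid synthesis. The pathway is known to be lower in the fat of obese and insulin-resistant animals, and circulating branched-chain amino acids are often raised in that state. The comparison addressed how this pathway differed between the fat of IL-37 transgenic and wild-type mice after the high-fat diet.

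In transgenic fat, RNA for 2 subunits of the dehydrogenase complex, Bckdhb and Dbt, and for the valine enzyme Hibch was higher, by 1.33-fold, 1.29-fold and 1.38-fold. No member was lower by the same test (limma). The 5 members whose groups did not overlap, all with transgenic fat higher, were these 3, the leucine enzyme Ivd and the valine enzyme Aldh6a1. The kinase Bckdk had nearly the same mean in both groups, and Bcat1 alone had an estimate well below 0. Thus 3 of 10 members were called higher and 0 lower (limma, Benjamini-Hochberg adjusted p at most 0.05), where 2.07% of all genes were called higher and 1.27% lower. At an unadjusted p of 0.05 the limma counts were 7 higher and 1 lower, where all genes gave 11.2% and 9.42%. Groups did not overlap for 8.24% of all genes with transgenic fat higher and for 5.73% with it lower. The median difference over the 10 members was 0.37 log2 units, against 0.02 over all genes. Differences lay above 0 for 8 of the 10 members and for 10409 of all 18820 genes. The number of calls changed with single arrays, for the members as for all genes. Without wild-type replicate 3, 6 members were called higher, where 6.31% of all genes were called in either direction. Without any of the other 7 arrays 0 members were called, where 0.436% to 2.25% of all genes were, against 3.34% with all 8 arrays. Over these 8 removals the differences ran from 0.36 to 0.44 for Bckdhb, from 0.34 to 0.42 for Dbt and from 0.41 to 0.53 for Hibch.

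The promoter windows of the called genes are shown with that of Bcat1, the member with the opposite estimate, so that the letters behind them can be read. RefSeq windows of the GRCm38.p6 assembly, from 250 bases before to 50 after the transcription start farthest upstream, were held for 9 of the 10 members in the table used here, Dbt being the other. The capitals mark matches, on either strand, to the GC box GGGCGG, to the pentamer that names the CCAAT box or to the TATA box, searched as TATAAA. The windows lie at chr9:83924887-83925186 on the plus strand for Bckdhb, chr1:52844788-52845087 on the plus strand for Hibch and chr6:145076108-145076407 on the minus strand for Bcat1.
Bckdhb: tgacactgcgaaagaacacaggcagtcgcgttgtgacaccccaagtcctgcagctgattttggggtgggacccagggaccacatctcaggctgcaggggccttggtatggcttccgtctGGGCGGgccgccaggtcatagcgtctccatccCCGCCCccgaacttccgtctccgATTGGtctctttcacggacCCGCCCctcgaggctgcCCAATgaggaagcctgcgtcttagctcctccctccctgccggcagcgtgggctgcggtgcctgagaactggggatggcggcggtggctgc
Hibch: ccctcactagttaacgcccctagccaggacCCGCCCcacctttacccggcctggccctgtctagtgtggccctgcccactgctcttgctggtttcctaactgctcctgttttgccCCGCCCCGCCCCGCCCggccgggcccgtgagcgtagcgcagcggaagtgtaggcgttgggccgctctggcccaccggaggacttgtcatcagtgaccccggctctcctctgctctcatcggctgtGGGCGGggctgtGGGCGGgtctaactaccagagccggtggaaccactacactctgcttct
Bcat1: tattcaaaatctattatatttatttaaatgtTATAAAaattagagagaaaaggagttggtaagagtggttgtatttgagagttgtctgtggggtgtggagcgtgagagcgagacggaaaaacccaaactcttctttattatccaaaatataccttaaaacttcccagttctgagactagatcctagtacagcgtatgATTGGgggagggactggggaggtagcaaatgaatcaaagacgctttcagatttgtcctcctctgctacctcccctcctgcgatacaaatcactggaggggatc
The Bckdhb window held 3 GC boxes and 2 CCAAT boxes, and that of Hibch held 6 GC boxes, some sharing a base with the next, and 0 CCAAT boxes. The Bcat1 window held 1 CCAAT box and 1 match to TATAAA, the latter near the upstream end of the window. Its share of G and C was 41.0%, against 65.0% for Bckdhb and 66.3% for Hibch. The median over all windows was 52.7%, and the remaining members with a window ran from 48.0% (Bckdha) to 54.0% (Bcat2 and Bckdk). Over the 9 members with a window, 3 held a GC box, 6 a CCAAT box and 2 a TATA box, where 35.9%, 38.0% and 14.2% of 27025 promoter windows of the same length did. The nuclear receptor half-site AAGGTCA, the E-box CACGTG, the NRF1 core CATGCGC and the ATF4 element TGATGNAA were in 0 of the 9 windows and in 4.65%, 7.24%, 4.03% and 4.06% of all windows. These counts describe letters and say nothing of binding.

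**Figure D1:**
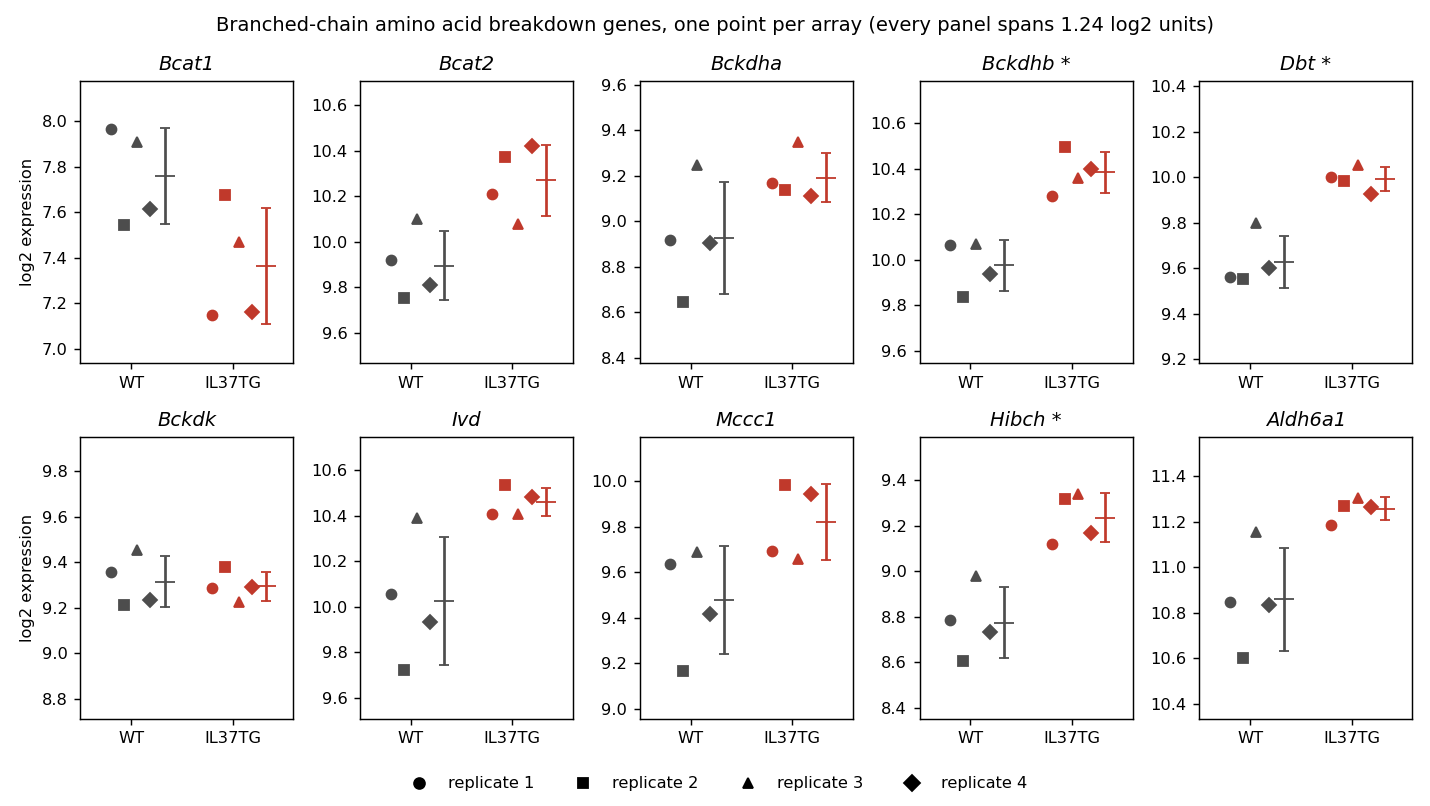
Log2 expression (vertical axis) of each member in WT and IL37TG fat, one point per array with the symbol giving the replicate, and a bar for mean ± SD (n = 4). Asterisks mark adjusted p at most 0.05 by limma; the groups do not overlap for Bckdhb, Dbt, Ivd, Hibch and Aldh6a1.

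The transaminases act first. Bcat2, the mitochondrial enzyme that predominates outside the brain, had log2 levels of 9.92, 9.75, 10.10 and 9.81 in wild-type replicates 1 to 4 and of 10.21, 10.37, 10.08 and 10.42 in transgenic replicates 1 to 4. Transgenic replicate 3 lay just below wild-type replicate 3, so the groups touched. The difference was 0.38 (95% interval 0.14 to 0.61) and did not pass (limma adjusted p = 0.0884). Bcat1, the cytosolic enzyme, had log2 levels of 7.97, 7.55, 7.91 and 7.61 in wild-type fat and 7.15, 7.68, 7.47 and 7.16 in transgenic fat. Transgenic replicate 2 lay above 2 of the wild-type arrays. The difference was -0.40 (interval -0.74 to -0.06) and did not pass either (limma adjusted p = 0.181). The log2 ratio of Bcat2 to Bcat1 within an array, whose absolute level has no meaning between 2 probe sets, ran from 1.95 to 2.21 in wild-type and from 2.61 to 3.25 in transgenic arrays. The ratio thus shifted by 0.77 with no overlap, ranging from 0.65 to 0.87 when 1 array was left out. This pair was chosen after its values were seen, so the shift is a description with no test.

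The dehydrogenase complex is built on a decarboxylase of alpha and beta chains and a transacylase core. Bckdhb, the beta chain, had log2 levels of 10.06, 9.84, 10.07 and 9.94 in wild-type and 10.28, 10.49, 10.36 and 10.40 in transgenic fat. Every transgenic array lay above every wild-type array. Its mean rose from 9.98 ± 0.11 to 10.38 ± 0.09 (SD, n = 4; log2 difference 0.41, SE 0.07, limma adjusted p = 0.0311). Dbt, the transacylase, had log2 levels of 9.56, 9.55, 9.80 and 9.60 in wild-type fat, and the transgenic arrays lay closely together at 10.00, 9.98, 10.06 and 9.93. It rose by 0.36 (SE 0.07, limma adjusted p = 0.0358). Bckdha, the alpha chain that carries the regulatory phosphorylation, had log2 levels of 8.92, 8.64, 9.25 and 8.90 in wild-type and 9.17, 9.14, 9.35 and 9.11 in transgenic fat. Wild-type replicate 3 lay inside the transgenic range. The difference of 0.26 had an interval from -0.02 to 0.55 (limma adjusted p = 0.271).

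Bckdk, the kinase that inactivates the complex, was the member with the smallest difference. Its log2 levels were 9.36, 9.21, 9.45 and 9.23 in wild-type and 9.28, 9.38, 9.22 and 9.29 in transgenic fat, fully intermixed. The difference was -0.02 (interval -0.18 to 0.14, limma adjusted p = 0.909), and its sign changed with array weights (0.018), on removal of transgenic replicate 3 (0.0043) and on removal of wild-type replicate 3 (0.027). The log2 ratio of Bckdhb to Bckdk within an array shifted by 0.43, from a range of 0.62 to 0.71 in wild-type to 0.996 to 1.14 in transgenic arrays. That of Dbt to Bckdk shifted by 0.38, from 0.21 to 0.37 up to 0.61 to 0.83. Neither overlapped. That of Bckdha to Bckdk did overlap, from -0.57 to -0.21 in wild-type and from -0.24 to 0.13 in transgenic arrays, a shift of 0.28. These 3 ratios were chosen after their values were seen and carry no test.

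In the leucine branch, Ivd encodes isovaleryl-CoA dehydrogenase. Its log2 levels were 10.06, 9.72, 10.39 and 9.93 in wild-type and 10.41, 10.53, 10.41 and 10.48 in transgenic fat. The groups did not overlap, but wild-type replicate 3 came within 0.02 of the lowest transgenic array, and the wild-type SD of 0.28 stood beside a transgenic SD of 0.06. The difference of 0.43 (interval 0.13 to 0.73) did not pass (limma adjusted p = 0.112). Mccc1, the biotin-carrying alpha subunit of methylcrotonyl-CoA carboxylase, had log2 levels of 9.63, 9.17, 9.69 and 9.42 in wild-type and 9.69, 9.98, 9.66 and 9.94 in transgenic fat. Wild-type replicate 3 lay among the transgenic values. The difference was 0.34 (interval 0.04 to 0.65, limma adjusted p = 0.189).

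In the valine branch, Hibch encodes the hydrolase that releases free hydroxyisobutyrate from its coenzyme A ester. Its log2 levels were 8.78, 8.60, 8.98 and 8.73 in wild-type and 9.12, 9.32, 9.34 and 9.17 in transgenic fat, without overlap. Hibch rose from 8.77 ± 0.16 to 9.24 ± 0.11 (SD, n = 4; log2 difference 0.46, SE 0.09, limma adjusted p = 0.0412), the largest of the 10 estimates over all 8 arrays. Aldh6a1, the methylmalonate semialdehyde dehydrogenase at the end of the branch, had log2 levels of 10.85, 10.60, 11.15 and 10.83 in wild-type and 11.19, 11.27, 11.31 and 11.26 in transgenic fat. The groups did not overlap, with wild-type replicate 3 within 0.03 of the lowest transgenic array. The difference of 0.40 (interval 0.15 to 0.65) did not pass (limma adjusted p = 0.0867). By an exact two-sided permutation test over the 70 assignments of the arrays, Bckdhb, Dbt, Ivd, Hibch and Aldh6a1 were at the smallest p that 4 against 4 arrays can give, 0.0286, and adjusted over all genes each was at 0.205. Groups without overlap always give that p, so this repeats the lack of overlap. The adjusted value is the lowest that any gene here had by this test, so no gene could pass it.

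The wild-type arrays varied together across these genes. Wild-type replicate 2 was the lowest wild-type array for 10 of the 10 members, with a median deviation of -0.19 from the wild-type mean. Wild-type replicate 3 was the highest for 9 of the 10, Bcat1 being the other, with a median deviation of 0.20. The transgenic arrays had no such order: replicate 2 was the highest for 5 members, replicate 3 for 4 and replicate 4 for 1. For 8 members the wild-type SD was larger than the transgenic SD, the exceptions being Bcat1 and Bcat2. The wild-type order was not particular to the members. Replicates 2 and 3 were also lowest and highest in list means of other pathway enzymes (9.31 and 9.58) and general mitochondrial genes (10.09 and 10.25). The same held for regulators (8.23 and 8.58) and endothelial markers (10.18 and 10.43). The other lists did not share it in full, and macrophage markers had the reverse. The spread between wild-type arrays was not compared with chance.

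**Figure D2:**
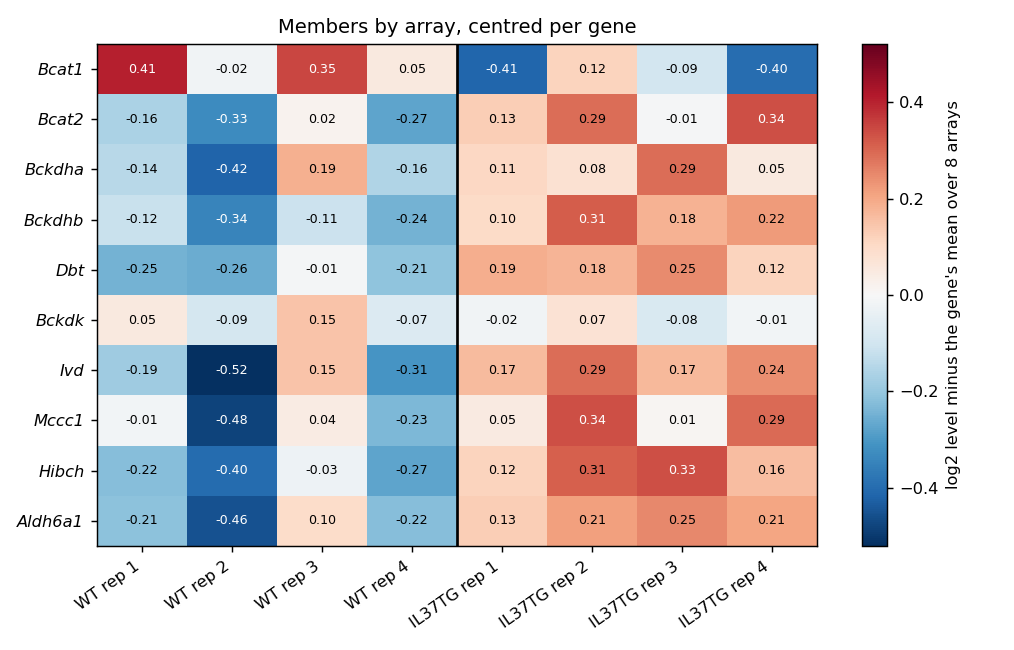
Log2 level of each member (rows) in each array (columns) minus that gene's mean over the 8 arrays, with the value printed in each cell. Wild-type replicate 2 is the bluest wild-type array for most genes, wild-type replicate 3 is near 0 or above it for several, and Bcat1 runs the other way.

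The arrays differed in other cell markers too. The 8 macrophage markers (Adgre1, Cd68, Csf1r, Itgam, Cd14, Fcgr1, Mrc1 and Itgax) had array means from 8.95 to 10.00 log2 units in wild-type and from 8.54 to 9.04 in transgenic fat. Of these, 1 fell, Fcgr1 (log2 -1.09, SE 0.23, limma adjusted p = 0.0469), and 0 rose. All 8 had a difference below 0, 6 of them at an unadjusted limma p of at most 0.05, and Fcgr1 and Cd68 had groups without overlap. Of all genes, 9.42% were lower at that p and 5.73% had groups without overlap with transgenic fat lower. Wild-type replicate 2, lowest for the members, had the highest macrophage mean (10.00), and wild-type replicate 3, highest for the members, had the lowest (8.95). The 8 adipocyte markers had array means from 12.32 to 12.44 in wild-type and 12.45 to 12.55 in transgenic fat, with 1 called higher, Adipoq, the adiponectin gene (log2 0.30, SE 0.06, limma adjusted p = 0.0309). At an unadjusted limma p of 0.05, 3 of the 8 were higher and 0 lower, and 3 had groups without overlap. Of all genes, 11.2% were higher at that p and 8.24% had groups without overlap with transgenic fat higher. In whole tissue, fewer cells of a type and less RNA per cell cannot be told apart, and the part of cell makeup in the members' differences was not tested.

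Of the remaining cell types, the lymphocyte (6 genes), endothelial (5), fibroblast (5) and mesothelial (5) markers had 0 genes called in either direction by limma, and 1 of these genes had an unadjusted p of at most 0.05, Col1a1 (log2 -0.63). Differences lay above 0 for 5 of 5 mesothelial genes (median 0.31), 4 of 5 endothelial (0.09), 2 of 5 fibroblast (-0.20) and 2 of 6 lymphocyte genes (-0.07). Of all 18820 genes, 10409 had a difference above 0. Mesothelial array means ran from 7.51 to 8.45 in wild-type fat, with replicate 2 lowest, and from 7.89 to 8.53 in transgenic fat. The part of these cells in the members' differences was not tested. Epididymal markers had mean levels near the floor, with 3 of 4 below 4.49, the 25th percentile of gene means. Of these, Adam7 reached 4.77 and 5.17 in wild-type replicates 3 and 4. Its level was 3.89 and 3.48 in wild-type replicates 1 and 2 and ran from 3.41 to 4.13 in transgenic arrays. The difference was -0.69 (limma adjusted p = 0.329), and the part of epididymal tissue in the members' differences was not tested. Of 5 skeletal muscle genes, Acta1 rose (log2 0.72, SE 0.11, limma adjusted p = 0.0206), and 3 of the 5 had a difference above 0, with a median of 0.11. The others were Actn3 (0.45, limma adjusted p = 0.215), Tnnt3 (0.11), Ckm (-0.06) and Myh4 (-0.20, with a mean level below 4.49). The array means of the muscle genes ran from 5.30 to 5.44 in wild-type and from 5.52 to 5.67 in transgenic fat, without overlap, and their part in the members' differences was not tested. Of 10 general mitochondrial genes, 0 were called in either direction by limma, 0 had an unadjusted p of at most 0.05, and their median difference was 0.04, with 7 above 0. The lowest p-values were those of Cox4i1, a subunit of cytochrome c oxidase (log2 0.16, interval -0.02 to 0.34, limma adjusted p = 0.301), and Hspd1, the mitochondrial chaperonin (log2 0.15, interval -0.04 to 0.33, limma adjusted p = 0.358). Nnt, which differs between C57BL/6 substrains, differed by 0.05 (limma adjusted p = 0.872) in the probe set with the higher mean of its 2. Whether the groups shared a substrain was not tested. The transgenic arrays had Nnt levels of 8.99, 9.50, 8.96 and 8.99, with replicate 2 apart.

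**Figure D3:**
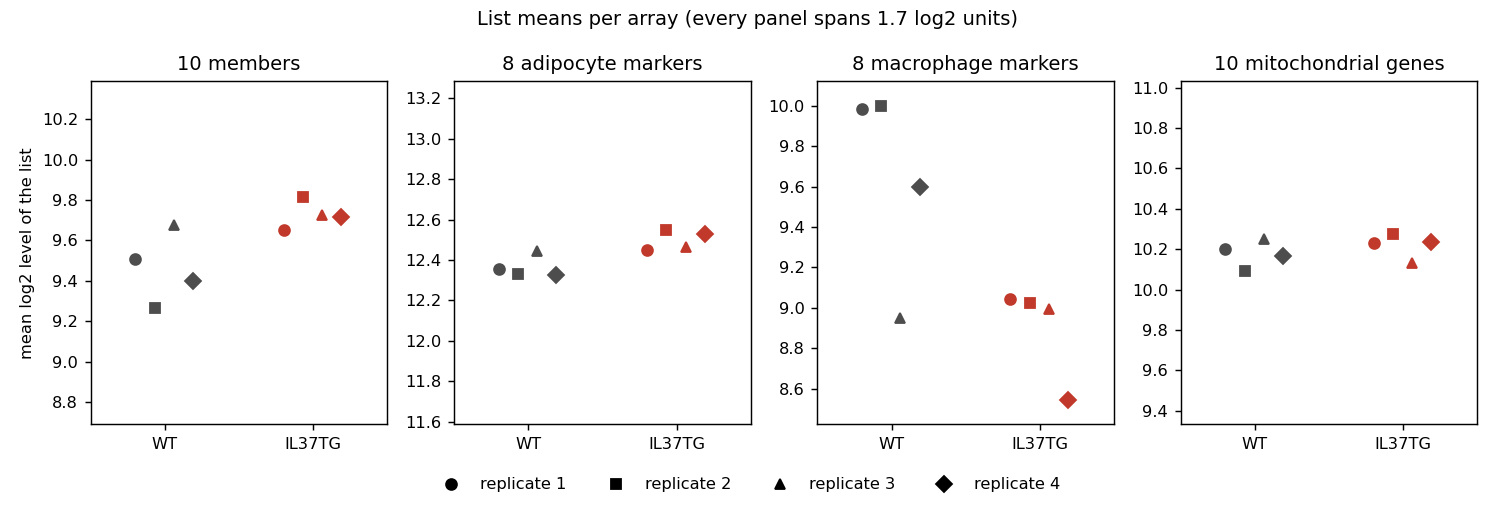
Mean log2 level per array (vertical axis) of the 10 members, 8 adipocyte markers, 8 macrophage markers and 10 general mitochondrial genes, in WT and IL37TG fat, with the symbol giving the replicate. Wild-type replicate 3 sits at 8.95 in the macrophage panel, among the transgenic arrays, and is the highest wild-type array in the panel of members.

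The rest of the pathway was read from 16 further genes. Of the 16, 2 rose and 0 fell (limma), where 2.07% of all genes rose and 1.27% fell. At an unadjusted limma p of 0.05 the counts were 7 higher and 0 lower, where all genes gave 11.2% and 9.42%. For 4 of the 16 the arrays of the 2 groups did not overlap, with transgenic fat higher, as for 8.24% of all genes. The median difference of the 16 was 0.20. Hsd17b10, a dehydrogenase of the isoleucine branch and a subunit of mitochondrial RNase P, had log2 levels of 10.16, 10.14, 10.20 and 10.09 in wild-type and 10.69, 10.74, 10.57 and 10.58 in transgenic fat. The groups were far apart for their spread, and it rose by 0.49 (SE 0.06, limma adjusted p = 0.00910). It was called whichever array was left out (limma adjusted p from 0.0111 to 0.0466). Mcee, the methylmalonyl-CoA epimerase, rose by 0.29 (SE 0.06, limma adjusted p = 0.0454), a call that held only without wild-type replicate 3 (0.32, limma adjusted p = 0.0287) when arrays were left out in turn.

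The next step after the epimerase is Mmut, the cobalamin-dependent methylmalonyl-CoA mutase. Its difference was 0.29 (interval 0.14 to 0.45, limma adjusted p = 0.0591), and its groups did not overlap. Ppm1k, the phosphatase that opposes Bckdk and reactivates the complex, also had groups without overlap and a difference of 0.31 (interval 0.13 to 0.48, limma adjusted p = 0.0702). Echs1, the enoyl-CoA hydratase, differed by 0.40 (limma adjusted p = 0.124) and Acadsb, which acts on the isoleucine branch, by 0.33 (limma adjusted p = 0.162). Dld, the subunit that the complex shares with pyruvate dehydrogenase, differed by 0.11 (interval -0.15 to 0.38), and Mccc2, the partner of Mccc1, by 0.24 (interval -0.003 to 0.49). Mmab, a cobalamin adenosyltransferase, was the only one of the 16 with an estimate below 0 over all 8 arrays (log2 -0.19, interval -0.40 to 0.01). With the row letter of the array names as a block, Dld, Acad8 and Pccb also had estimates below 0. The estimates of that fit set transgenic replicate 1 against wild-type replicates 3 and 4 alone. Within single columns of those names other genes also had estimates below 0.

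**Figure D4:**
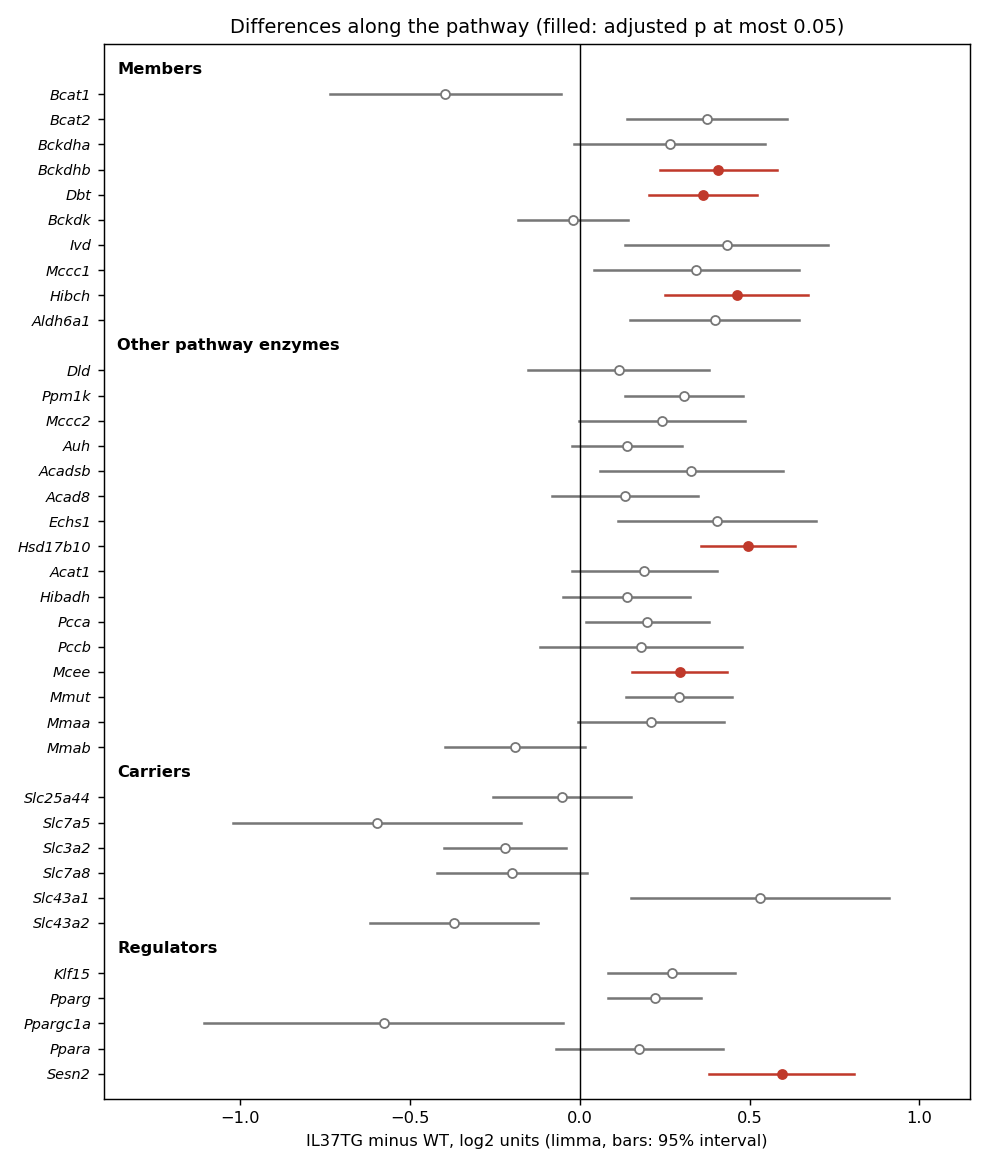
Difference between IL37TG and WT fat in log2 units (horizontal axis) for the 10 members, 16 other pathway enzymes, 6 carriers and 5 regulators, with bars for the 95% interval from limma. Filled points passed an adjusted p of 0.05. Above 0 lie 15 of the 16 other enzymes and 8 of the 10 members, against 10409 of all 18820 genes. Of the 6 carriers, 5 lie below 0.

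Carriers of branched-chain amino acids had 0 of 6 genes called in either direction by limma. At an unadjusted limma p of 0.05, 1 was higher and 3 were lower, where all genes gave 11.2% and 9.42%. Groups without overlap and with transgenic fat lower were found for 5.73% of all genes. The median difference of the carriers was -0.21. Slc43a2, a facilitative carrier of large neutral amino acids, had log2 levels of 8.74, 8.65, 8.31 and 8.37 in wild-type and 8.04, 8.17, 8.26 and 8.13 in transgenic fat, without overlap (difference -0.37, limma adjusted p = 0.101). Slc7a5, the light chain of the main plasma membrane exchanger, differed by -0.60 (interval -1.02 to -0.17, limma adjusted p = 0.120) and its heavy chain Slc3a2 by -0.22 (interval -0.40 to -0.04, limma adjusted p = 0.162). Slc43a1 differed by 0.53 (limma adjusted p = 0.121). Slc25a44, the carrier that brings branched-chain amino acids into mitochondria, differed by -0.05 (interval -0.25 to 0.15). Slc7a5 and Slc43a2 are also used by leukocytes, and the macrophage markers above moved the same way; their part was not tested.

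Among 5 regulators, Sesn2 rose and 0 fell (limma). At an unadjusted limma p of 0.05, 3 were higher and 1 lower, where all genes gave 11.2% and 9.42%. With transgenic fat higher, 8.24% of all genes had groups without overlap. Sesn2 encodes a stress-induced protein that senses leucine for the mTORC1 kinase. Its log2 levels were 8.69, 8.57, 8.79 and 8.42 in wild-type and 9.11, 9.13, 9.30 and 9.31 in transgenic fat, a clear gap, and it rose by 0.59 (1.51-fold, SE 0.09, limma adjusted p = 0.0202). The call was lost without wild-type replicates 1, 2 or 4 or transgenic replicates 2 or 4, where the difference ran from 0.53 to 0.65 over all 8 removals. Klf15, a transcription factor that induces amino acid breakdown, differed by 0.27 (interval 0.08 to 0.46, limma adjusted p = 0.110), with no overlap by a margin of only 0.0023. Pparg, the master regulator of fat cells, differed by 0.22 (limma adjusted p = 0.0834), also with no overlap. Ppargc1a, the mitochondrial coactivator, differed by -0.58 (interval -1.11 to -0.05, limma adjusted p = 0.206) with wild-type levels spread from 6.79 to 8.02.

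Values within subsets of arrays were given because the array names hold a letter and a number, read here as a row and a column, whose meaning the labels do not state. Only row G (wild-type replicates 3 and 4, transgenic replicate 1) held both groups, and each of the columns 5, 7 and 9 did. A row block therefore takes its estimate from the arrays of row G alone. Bckdhb differed by 0.43, 0.36 and 0.50 within columns 5, 7 and 9 and by 0.28 in row G. Dbt differed by 0.19, 0.47 and 0.41 within the columns and by 0.30 in row G. Hibch differed by 0.34, 0.58 and 0.54 and by 0.27. These 3 genes had groups without overlap, which fixes the sign within any subset. The calls ended with the row as a block (limma adjusted p = 0.508, 0.425 and 0.575) and when the column was one (limma adjusted p = 0.0659, 0.0888 and 0.0541). Bckdha changed sign within column 5, to -0.11, where wild-type replicate 3 met transgenic replicate 2. Hsd17b10 differed by 0.54, 0.44 and 0.50 within the columns and by 0.54 in row G, and was still called with a column block (limma adjusted p = 0.0493) but not with a row block (limma adjusted p = 0.164).

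**Figure D5:**
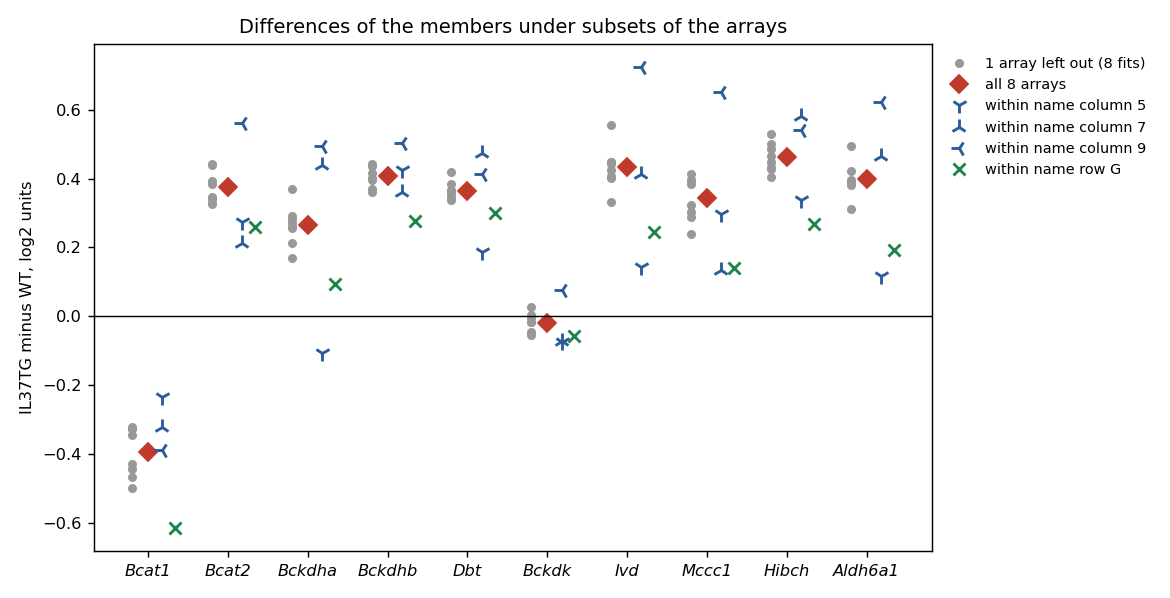
Difference between IL37TG and WT fat in log2 units (vertical axis) for each member over all 8 arrays (diamond), with each array left out in turn (grey), within each column number of the array names (blue) and within row G (green cross). Bckdhb runs from 0.28 to 0.50 over the subsets, whereas Bckdha falls to -0.11 within column 5.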

How the data were processed

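Expression was measured on 8 single-colour arrays of biotin-labelled cDNA, 4 per group. Values were deposited on a log2 scale, 1 per probe set. The submitters' processing notes name RMA (background correction, quantile normalisation and probe summary), with settings and version not given in the sources used here. Such normalisation hides a shift shared by most genes, and the number of arrays limits the precision. Array medians lay between 5.97 and 6.04.

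Of 35556 probe sets, 21218 had 1 gene symbol, 1881 several and 12457 none in the platform annotation. Symbols were updated by Entrez identifier for 21185, and the probe set with the highest mean was kept per gene, which left 18820 genes. Groups came from the sample titles and were set against each other by limma 3.58.1 under R 4.3.3 (two-sided lmFit and eBayes without a filter, Benjamini-Hochberg over all genes), tested on simulated data first. Differences are transgenic minus wild type. Figures used matplotlib 3.10.9 in Python 3.11.15. The members and gene lists were chosen with earlier results of these data known. Named genes were all members and, per list, those past the threshold or else the 2 with the lowest p; further pathway and marker genes were named after their values were seen. The alternatives were 2 normalisations, 2 filters, other priors, weights, blocks, thresholds and arrays left out.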

Additional observations from a re-analysis of the deposited data

Results flagged for a closer look

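Among 102 groups of 4 arrays examined (the pathway genes, Nnt and the means of the gene lists), 4 had 1 array far from the other 3, which is 3.92%, where chance gives about 1 in 20. None of these was a member. Transgenic replicate 1 stood apart for Ppara (7.02, the others from 7.32 to 7.38) and transgenic replicate 2 for Nnt (9.50, the others from 8.96 to 8.99). Transgenic replicate 4 stood apart for the mean of the macrophage markers (8.54, the others from 8.99 to 9.04) and transgenic replicate 3 for that of the mesothelial markers (7.89, the others from 8.50 to 8.53).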

How the results depend on the processing

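Against 3 members called higher, there were 5 with a filter at the median gene, 6 with array weights, 5 at a threshold of 0.1, and 0 at a threshold of 0.01, with the row letter or the column number as a block, or without both transgenic arrays whose names end in 2. Leaving out 1 array gave 0 to 6. No setting called a member lower. Of the other pathway enzymes, 2 were called; centring on medians, the filter at the median gene, array weights and the threshold of 0.1 each gave 4, the column block and the threshold of 0.01 gave 1, the row block and the removal of both arrays gave 0, and leaving out 1 array gave 1 to 4. Of carriers and regulators 1 was called, against 3 with the filter at the median gene, 2 with a trended and robust prior, array weights or a threshold of 0.1, 0 with the row or column block, the threshold of 0.01 or both arrays removed, and 0 to 2 on leaving out 1. Of all genes 3.34% were called, against 6.16% with a filter at the 25th percentile, 13.8% with one at the median gene, 6.71% with array weights, 0.372% and 0.383% with the row and column blocks, 0.0956% without both arrays, 0.367% and 8.17% at the thresholds of 0.01 and 0.1, and 0.436% to 6.31% on leaving out 1 array. The causes were not tested.

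The titles number the arrays 1 to 4 in both groups, but same-numbered arrays had correlated deviations of only 0.0941, 0.102, 0.0892 and 0.0566, so the numbers were not taken as a pairing. With the replicate number as a block, 0 members, 0 other pathway enzymes and 0 carriers or regulators were called, and 0.494% of all genes.

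Bckdk (-0.02) and Slc25a44 (-0.05), both near 0 over all 8 arrays, changed sign. Bckdk did so with array weights (0.018) and on leaving out 1 array (-0.053 to 0.027). Its estimate lay above 0 when replicate 3 of either group was dropped (0.027 for wild-type, 0.0043 for transgenic). Dropping wild-type replicate 1 moved Slc25a44 to 0.0045. Estimates further from 0 changed sign with the row block, which sets transgenic replicate 1 against wild-type replicates 3 and 4 alone. Dld went from 0.11 to -0.0061, Acad8 from 0.13 to -0.046 and Pccb from 0.18 to -0.12. The same block took Slc7a8 from -0.20 to 0.046 and Ppara from 0.18 to -0.12. The other 9 members kept their sign under every setting run, though Bckdha did not within column 5 alone (-0.11). For Bckdhb, Dbt, Ivd, Hibch and Aldh6a1 the lack of overlap fixes the sign in any subset of the arrays. The filters, the other prior and the replicate block leave each member's difference unchanged. Each member had 1 probe set, so no further probe set could be compared. The shifts of the 4 ratios within arrays given above kept their sign under every setting. These ratios were added after the data were seen. All but that of Bckdha to Bckdk had groups without overlap, which fixes the sign in any subset of the arrays. Only 4 arrays per group limited what could be called.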
